A study of Homo sapiens with 3 samples.

Results

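The genes described here are 10 dual-specificity phosphatases (DUSPs) that act on MAP kinases: DUSP1, DUSP2, DUSP4, DUSP5, DUSP6, DUSP7, DUSP8, DUSP10, DUSP14 and DUSP16. Earlier results of these data were known when these genes were chosen, but no measured value entered the rule. The genes were picked by name, by matching the RefSeq accession of each array probe to a gene symbol. They are 10 of the 19699 genes that could be named in this way and are read by 12 of the 34041 probes, since DUSP8 has 3 probes and each other gene has 1. PANC-1, an established human pancreatic cancer line of epithelial origin, was the control without an agent, or was given 20 µM cantharidin or 20 µM okadaic acid for 24 h, as the labels state. The treatment note writes this dose once for both agents and the sample label repeats it for okadaic acid, which in cultured cells is commonly used at far lower concentrations, so the okadaic acid dose is in doubt. Total RNA of each culture was labelled with Cy3 and hybridised to a whole-genome expression array. Each group was 1 culture on 1 array, and all 3 arrays lay on 1 slide, so differences between cultures of a group were not measured and the position on the slide cannot be told apart from the treatment. No test was therefore made, and all differences compare these 3 arrays only.

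MAP kinases (ERK, JNK and p38) are switched on by phosphorylation of a threonine and a tyrosine in the activation loop, and DUSPs remove both phosphates. Many DUSP genes are themselves transcribed when MAP kinases are active, which makes them feedback inhibitors of the pathway. Cantharidin, a compound from blister beetles, and okadaic acid, a marine toxin, both inhibit the serine/threonine phosphatase PP2A, which also acts on members of this pathway.

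The promoters of 4 of these genes are shown. They were picked by the direction of the values below and by a shared motif, and a link between motifs and values was not tested. DUSP1, DUSP2 and DUSP7 were the genes lower with cantharidin and higher with okadaic acid past 1.5-fold. The DUSP7 calls and the okadaic acid call of DUSP1 did not hold under every setting. DUSP8 shared the cyclic AMP response element (CRE) with DUSP1 but was higher with cantharidin on its brightest probe. Each line holds the 250 bases before the RefSeq start on GRCh38.p14, written 5′ to 3′ on the gene's strand. Capitals mark the CRE TGACGTCA, its shorter form TGACG, the E-box CACGTG and the TATA box TATAAA, on either strand.
DUSP1, chr5:172771196-172771445, minus strand: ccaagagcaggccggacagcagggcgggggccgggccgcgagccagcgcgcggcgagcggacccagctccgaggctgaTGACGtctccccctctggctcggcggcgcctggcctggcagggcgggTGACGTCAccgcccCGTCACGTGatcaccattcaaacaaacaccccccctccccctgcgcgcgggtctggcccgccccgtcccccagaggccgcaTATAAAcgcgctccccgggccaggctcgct
DUSP2, chr2:96145441-96145690, minus strand: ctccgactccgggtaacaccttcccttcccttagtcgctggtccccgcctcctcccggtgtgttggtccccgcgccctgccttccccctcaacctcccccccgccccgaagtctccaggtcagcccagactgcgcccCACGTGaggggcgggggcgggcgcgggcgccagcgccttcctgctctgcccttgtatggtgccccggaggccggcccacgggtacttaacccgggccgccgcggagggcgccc
DUSP7, chr3:52056572-52056821, minus strand: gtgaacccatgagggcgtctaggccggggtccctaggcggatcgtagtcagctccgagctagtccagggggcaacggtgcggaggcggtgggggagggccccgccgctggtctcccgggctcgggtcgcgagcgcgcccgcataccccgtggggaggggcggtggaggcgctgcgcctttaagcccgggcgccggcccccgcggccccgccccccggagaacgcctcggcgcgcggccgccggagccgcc
DUSP8, chr11:1572272-1572521, minus strand: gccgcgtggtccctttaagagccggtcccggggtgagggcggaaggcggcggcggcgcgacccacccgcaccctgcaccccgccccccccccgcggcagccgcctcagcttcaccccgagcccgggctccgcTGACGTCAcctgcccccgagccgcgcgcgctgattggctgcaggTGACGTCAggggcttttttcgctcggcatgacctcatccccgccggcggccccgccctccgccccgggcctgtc

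RefSeq start sites were found for 8 of the 10 genes, with 9 promoters in all because DUSP10 has 2 starts. Motifs were searched on both strands in the 250 bases before the start, and their shares were taken over the same window of all 35116 promoters. The full CRE was in the promoters of 2 of the 8 genes, with 1 match in DUSP1 and 2 in DUSP8, and in 1.65% of all promoters. TGACG, which lies inside the CRE and is counted there as well, had 4 matches in DUSP1 and 4 in DUSP8 and was in 21.2% of all promoters. The E-box was in DUSP1 and DUSP2 and in 6.34% of all promoters, and in DUSP1 it overlapped a TGACG match. The TATA box was in DUSP1 alone among the 8 genes and in 10.7% of all promoters. GGGCGG, the GC box, was in 7 of the 8 genes and 8 of the 9 promoters, with DUSP6 the exception, and in 42.6% of all promoters. The windows of DUSP1, DUSP2, DUSP7, DUSP8, DUSP14 and DUSP16 held 74.0% to 82.8% G or C. Those of DUSP6 and DUSP10 held 55.2% to 57.2%, against a median of 58% over all promoters. The shares of motifs were not adjusted for this. CCAAT was in DUSP6, DUSP8 and 1 of the DUSP10 promoters, and in 32.0% of all promoters. No member promoter held the AP-1 motif TGANTCA, the CArG box or the NF-κB motif, which were in 6.57%, 1.16% and 5.21% of all promoters. Such matches describe the letters of these windows and do not show that a factor binds there.

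Signals are given below as the background-corrected spot intensity, always in the order control, cantharidin, okadaic acid. Differences were taken on the log2 scale after each array was divided by its own 75th percentile of intensity, which was 784, 713 and 936. A gene was called higher or lower past 1.5-fold. The scanner software's error estimate for a spot was 10.0% of the intensity at the median of the detected member probes and 21.2% at most, which gave an error of 0.20 on the log2 scale for most differences. The estimate was never below 10.0% for these probes and is not a spread measured over spots. It covers the spot, not the culture. The arrays measure RNA pooled over all cells of a culture, so fewer cells with a transcript and less of it per cell cannot be told apart.

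With cantharidin, 6 of the 10 phosphatase genes were higher than in control, 3 were lower and 1 lay within 1.5-fold. Among all 16644 genes compared, 27.5% were higher and 34.1% were lower. The median log2 difference was 0.98 for the 10 genes and -0.16 for all genes. With okadaic acid, 8 of the 10 genes were higher, none was lower and 2 lay within 1.5-fold, where 28.1% of 16166 genes were higher and 28.8% were lower. The median was 1.03 for the 10 genes and 0.01 for all genes. Both comparisons used the same control array, so they are not independent of each other. Between the agents, 4 of the 10 genes were higher with okadaic acid and 3 were lower, where 29.5% and 22.3% of 16200 genes were. The median difference between the agents was 0.03 for the 10 genes and 0.13 for all genes. Without scaling between arrays, 36.6% of all genes were higher and 22.4% lower with okadaic acid against control, and 47.1% were higher and 13.9% lower between the agents.

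**Figure D1:**
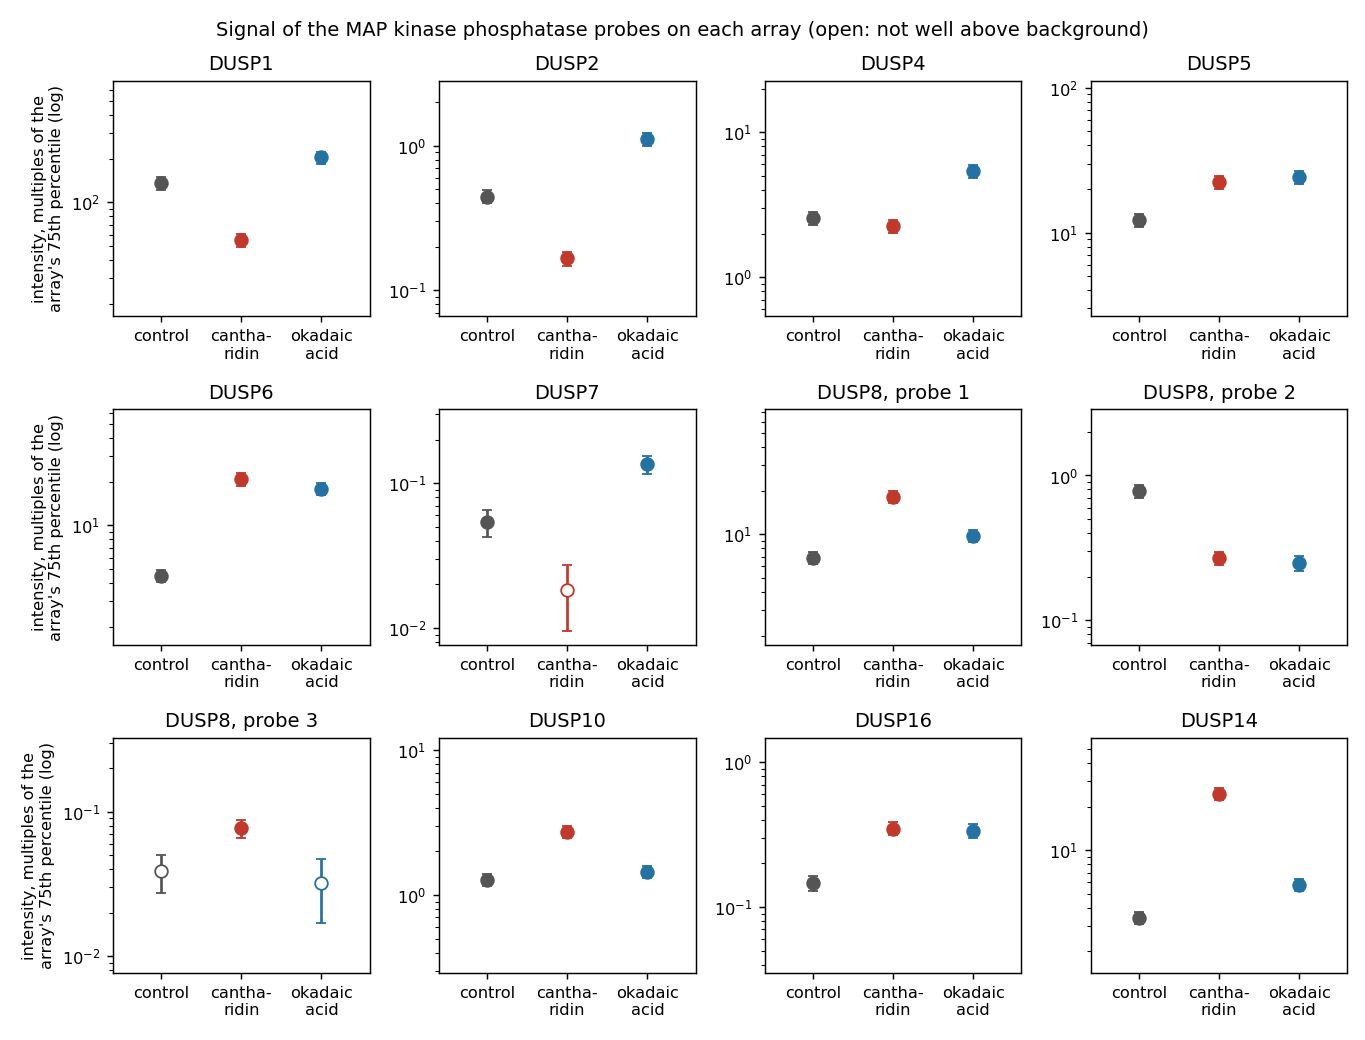
Intensity of each of the 12 probes as a multiple of the array's 75th percentile, on a log axis, for the control, cantharidin and okadaic acid arrays. Bars give the scanner software's error estimate, open points were not well above background, and the axes of the panels span equal ratios but start at different levels. DUSP1, DUSP2, DUSP4 and DUSP7 are lowest with cantharidin and highest with okadaic acid, and DUSP14 is among those highest with cantharidin.

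Among the inducible phosphatases of the nucleus, the 2 agents gave opposite directions for DUSP1 and DUSP2. DUSP1, also called MKP-1, is an early response gene whose product acts on p38, JNK and ERK. Its intensity was 106519, 39176 and 191125. The cantharidin array was the lowest and the okadaic acid array the highest of the 3. DUSP1 was 2.47-fold lower with cantharidin, a log2 difference of -1.30. It was 1.5-fold higher with okadaic acid, a log2 difference of 0.59 that lies on the threshold and came to 0.47 when arrays were scaled to their median instead. Okadaic acid exceeded cantharidin by 3.71-fold.

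The DUSP1 probe was printed in 10 spots on each array, which allowed its measurement error within an array to be seen. The control spots ran from 99372 to 115624 with a median of 106130. The cantharidin spots ran from 36384 to 41180 with a median of 39430, and those of okadaic acid from 166684 to 218614 with a median of 195024. No spot of 1 array fell within the range of another, either as measured or after scaling. The SD over spots on the log2 scale was 0.07, 0.05 and 0.13, against a median of 0.06, 0.09 and 0.07 over the detected probes with 10 spots. These spots share 1 RNA sample and are not replicates of a treatment.

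**Figure D2:**
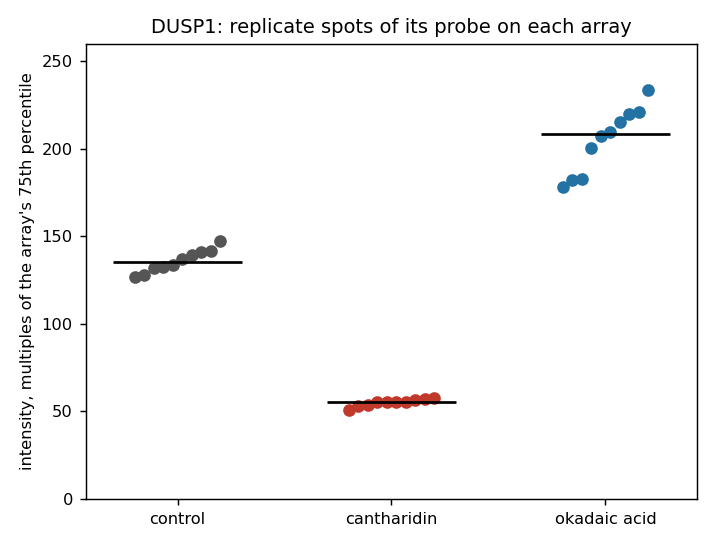
The 10 spots of the DUSP1 probe on each of the 3 arrays, as multiples of the array's 75th percentile, in order of their values, with the median as a line. Control spots sit between 127 and 147, cantharidin spots between 51.1 and 57.8, and okadaic acid spots between 178 and 234.

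DUSP2, or PAC-1, is a nuclear phosphatase first described in activated lymphocytes. Its intensity was 349, 118 and 1039, again lowest with cantharidin and highest with okadaic acid. It was 2.68-fold lower with cantharidin (log2 difference -1.42) and 2.50-fold higher with okadaic acid (1.32). The 6.68-fold difference between the agents was the widest among the 9 of these genes whose reading came from spots well above background on all 3 arrays. With another background correction (normexp), DUSP2 came to -0.97 with cantharidin and 1.08 with okadaic acid on the log2 scale. The difference between the agents came to 2.05, close in size to the -2.04 of DUSP14 under that setting.

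DUSP4, or MKP-2, is a nuclear phosphatase of ERK and JNK. Its intensity was 2001, 1606 and 5027, so that the okadaic acid array stood above the other 2. The cantharidin difference of -0.18 was smaller than its spot error of 0.20. With okadaic acid DUSP4 was 2.11-fold higher than in control and 2.38-fold higher than with cantharidin.

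DUSP5 dephosphorylates ERK and holds it in the nucleus. Its intensity was 9546, 15862 and 22585, and both treated arrays lay above control. The increase was 1.83-fold with cantharidin and 1.98-fold with okadaic acid. The agents differed by 0.12 on the log2 scale, which is below the spot error of 0.20.

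The cytoplasmic phosphatases of ERK, DUSP6 and DUSP7, differed from each other in their pattern. DUSP6, or MKP-3, is transcribed in response to ERK signalling and is widely used as a readout of it. Its intensity was 3533, 14923 and 16731. Both treated arrays lay well above control, by 4.65-fold with cantharidin and by 3.97-fold with okadaic acid. After scaling, the agents differed by -0.23 on the log2 scale, against a spot error of 0.20, and this sign turned when the arrays were left unscaled.

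DUSP7, an ERK phosphatase related to DUSP6, gave a dim signal. Its intensity was 42.1, 13.1 and 126, and the cantharidin spot was not well above background. On their own arrays, the control value was 1.20 times and the okadaic acid value 2.17 times the dimmest signal counted as well above background. With cantharidin DUSP7 was therefore at least 1.75-fold lower. With okadaic acid it was 2.51-fold higher than in control and at least 4.39-fold higher than with cantharidin. Both bounds leave out the spot error, which was 0.76 for cantharidin against control and 0.73 between the agents on the log2 scale. Both differences from control shrank below 1.5-fold with the normexp background correction, to -0.45 and 0.36 on the log2 scale. The difference between the agents shrank to 0.81 there, below its bound of 4.39-fold.

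**Figure D3:**
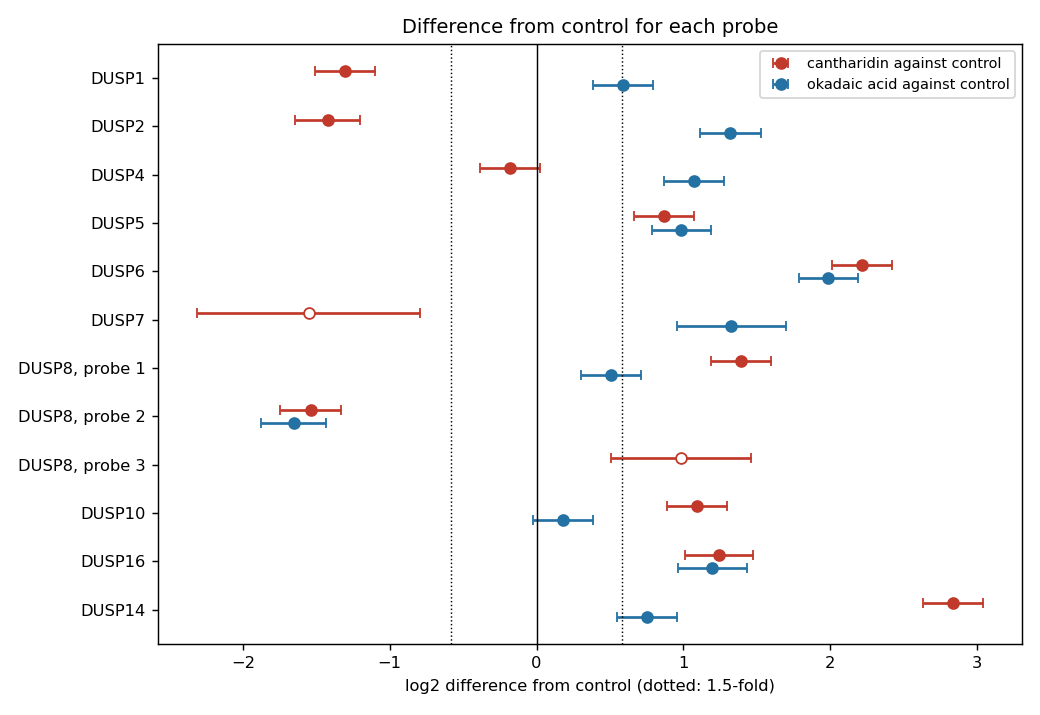
Log2 difference from control for each probe with cantharidin and with okadaic acid, with the scanner software's error as bars and 1.5-fold as dotted lines. Open points are measured values in which 1 array was not well above background, and the third DUSP8 probe has no okadaic acid point because neither array was. DUSP1, DUSP2, DUSP4 and DUSP7 lie on opposite sides of 0, with DUSP4 within 1.5-fold for cantharidin. DUSP5, DUSP6, DUSP10, DUSP14, DUSP16 and the brightest DUSP8 probe lie to the right for both agents.

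The phosphatases that prefer JNK and p38 are DUSP8, DUSP10 and DUSP16, and all 3 were higher with cantharidin on their brightest probe. DUSP10, or MKP-5, had an intensity of 1003, 1944 and 1358. Only the cantharidin array stood apart, at 2.13-fold above control. The okadaic acid difference of 0.18 was below the spot error of 0.20, and okadaic acid was 1.88-fold below cantharidin.

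DUSP16, or MKP-7, had an intensity of 115, 248 and 315. Both treated arrays lay above control, by 2.37-fold with cantharidin and by 2.29-fold with okadaic acid. With normexp these differences shrank from 1.24 and 1.20 to 0.76 and 0.72 on the log2 scale, still past 1.5-fold. The agents differed by -0.05 on the log2 scale, with a spot error of 0.22.

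DUSP8 was read by 3 probes that carry the same RefSeq accession and did not move together. The brightest probe gave 5415, 12940 and 9175, with cantharidin highest. It was 2.63-fold higher with cantharidin and 1.42-fold higher with okadaic acid, and okadaic acid was 1.85-fold below cantharidin. The next probe gave 611, 191 and 232, with control highest. It was 2.91-fold lower with cantharidin and 3.14-fold lower with okadaic acid. The third probe gave 30.5, 54.7 and 30.0 and was well above background with cantharidin only, where it was at least 1.72-fold higher than in control. Where the 3 probes lie in the transcript was not worked out here, and the counts above use the brightest of them. With the median over the detected probes, the okadaic acid difference of DUSP8 was -0.57 on the log2 scale instead of 0.51.

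DUSP14, or MKP-6, is a small atypical member that lacks the kinase-binding domain of the others. Its intensity was 2686, 17445 and 5410, with the cantharidin array far above the other 2. The 7.15-fold increase with cantharidin was the largest change among the 10 genes. With okadaic acid DUSP14 was 1.69-fold above control and 4.24-fold below cantharidin.

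The pattern of DUSP2, which had the widest difference between the agents among the 9 phosphatase genes detected on all 3 arrays, was compared with that of all 14221 genes detected on all 3 arrays. Likeness was the straight-line distance between genes over their log2 differences from control with each agent. The nearest were FANCM, which takes part in DNA crosslink repair, at 0.04, the riboflavin transporter SLC52A3 at 0.09, and DGAT1, which makes triglycerides, at 0.11. FANCM had an intensity of 145, 48.9 and 444. There were 61 genes within a distance of 0.5, so the pattern was not particular to DUSP2.

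Genes around these phosphatases in the pathway were described from fixed lists, with the counts read against the shares of all genes given above. Of the 15 other dual-specificity phosphatases compared, 5 were higher and 3 lower with cantharidin (median log2 difference -0.09), and 5 were higher and 5 lower with okadaic acid (0.17). DUSP11, an RNA phosphatase, was 3.27-fold higher with cantharidin and 2.86-fold higher with okadaic acid, and DUSP12 was 2.20-fold and 2.40-fold higher. The pseudophosphatase STYX was 8.16-fold lower with cantharidin and 1.57-fold lower with okadaic acid. Among them DUSP9, the further cytoplasmic phosphatase of ERK, had an intensity of 138, 94.8 and 195 and lay within 1.5-fold of control with both agents.

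Other phosphatases that act on MAP kinases showed 4 of 8 genes higher and 2 lower with cantharidin, with a median of 0.45. With okadaic acid 2 of 7 were higher and none lower, with a median of 0.46. This list holds both catalytic subunits of PP2A, a phosphatase that both agents inhibit. PPP2CA was 1.65-fold higher with cantharidin and 1.51-fold higher with okadaic acid. PPP2CB was 2.08-fold higher with cantharidin and 1.15-fold above control, within the threshold, with okadaic acid. PPM1D was 2.04-fold and 2.18-fold higher on its brightest probe, but its other probe was lower with both agents.

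The kinases that the DUSPs act on, and the kinases above them, did not move in 1 direction. Of 12 MAP kinases, 3 were higher and 5 lower with cantharidin (median -0.32), and 2 were higher and 4 lower with okadaic acid (-0.25). MAPK7, which encodes ERK5, was 4.61-fold and 3.35-fold higher, while MAPK3, which encodes ERK1, was 2.80-fold and 3.22-fold lower. Of 7 MAP kinase kinases, 3 were higher and 1 lower with cantharidin (0.42), and 4 were higher and 1 lower with okadaic acid (0.63). MAP2K4, a kinase of JNK, was 3.13-fold higher with cantharidin and 1.55-fold higher with okadaic acid on its brightest probe. MAP2K5, the kinase of ERK5, was 1.64-fold lower with cantharidin and 6.80-fold lower with okadaic acid.

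Sprouty and SPRED proteins, IL17RD and ERRFI1 dampen the ERK pathway and, like DUSP6, are counted among its feedback inhibitors. Of the 8 such genes compared, 2 were higher and 5 lower with cantharidin, with a median of -1.05, whereas DUSP6 itself was 4.65-fold higher. With okadaic acid 2 were higher and 2 lower, with a median of -0.21. SPRY1 was 5.36-fold lower with cantharidin. SPRY4 was 2.69-fold higher with okadaic acid on its brighter probe and higher on its other probe as well. With cantharidin its brighter probe was 2.26-fold higher and its other probe was not.

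Transcription factors whose genes or proteins respond to MAP kinases held the largest single changes of these lists. Of 17 compared with cantharidin, 7 were higher and 3 lower (median 0.08), and of 18 with okadaic acid, 8 were higher and 4 lower (0.41). EGR1 had an intensity of 1003, 78135 and 104523, which was 85.8-fold and 87.3-fold above control. EGR2, at 7.47, 1144 and 10113, was not well above background in control. It was at least 36.0-fold higher with cantharidin and at least 242-fold higher with okadaic acid. FOS was 2.85-fold higher with cantharidin and 17.7-fold higher with okadaic acid. MYC, at 88284, 5889 and 18519, was 13.6-fold and 5.69-fold lower.

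**Figure D4:**
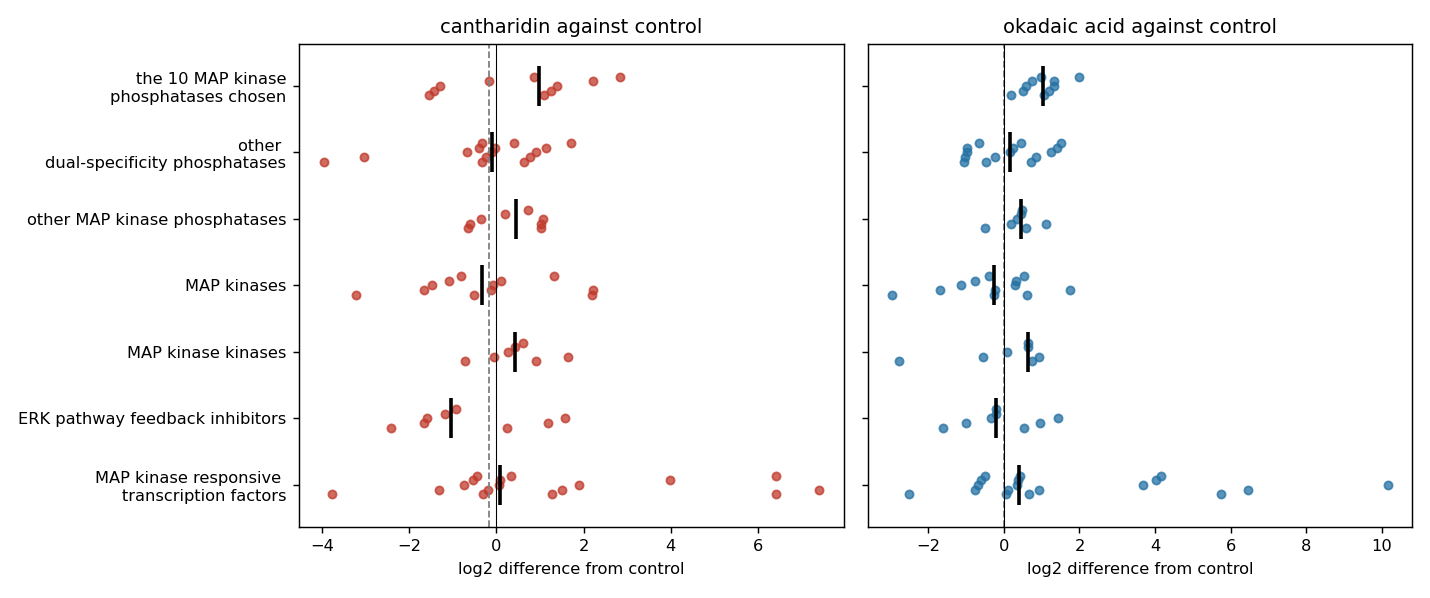
Log2 difference from control of each gene compared, by list, with cantharidin and with okadaic acid. Each point is a gene, the thick line is the list's median, and the dashed line is the median of all genes. The 10 phosphatases have medians of 0.98 and 1.03, against -1.05 and -0.21 for the ERK pathway feedback inhibitors.

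The label of the cells was set against markers of the cell types concerned. Epithelial markers were well above background for 6 of 6 genes in control and for 5 in each treated culture, where CDH1 was not. CDH1, the epithelial cadherin, measured 167, 23.9 and 44.0, and CDH2 measured 5023, 328 and 1195, while VIM measured 311685, 304354 and 236756. With cantharidin 1 of the 6 epithelial markers was higher and 3 were lower (median log2 difference -0.87), with EPCAM 3.42-fold and KRT8 2.25-fold lower. With okadaic acid 2 were higher and 3 lower (median -0.48). Their summed intensity still rose, at 187, 231 and 287 times the 75th percentile. After the same scaling KRT18, which measured 70664, 127869 and 193320, rose by more than the sum did. The other epithelial markers together fell. The sum of the 2 mesenchymal markers was 404, 428 and 254 times the 75th percentile. All 4 leukocyte markers were above background on every array, with PTPRC at 372, 263 and 405. Their sum was 4.22, 3.57 and 12.9 times the 75th percentile, and its rise with okadaic acid lay in CD14, at 2535, 1838 and 11044. Of the endothelial, fibroblast, and acinar and islet markers, 2 of 3, 2 of 3 and 3 of 4 were well above background on every array. VWF measured 1814, 958 and 1090, and INS measured 792, 618 and 765. Only PECAM1, LUM and CPA1 did not rise well above background in any of the cultures. The sums of these lists were 2.88, 1.85 and 1.70 for endothelium, 0.20, 0.33 and 0.16 for fibroblasts and 1.43, 1.96 and 1.29 for acinar and islet cells. The part of these marker changes in the DUSP values was not tested.

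The DUSP values were recomputed under the other settings of background correction, scaling, dim-spot filter and data source. No called difference changed sign under any of the settings run. At 1.5-fold, the calls against control that were lost under at least 1 setting were those of DUSP1 with okadaic acid and of DUSP7 with both agents, and the other phosphatases called against control kept their calls.

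**Figure D5:**
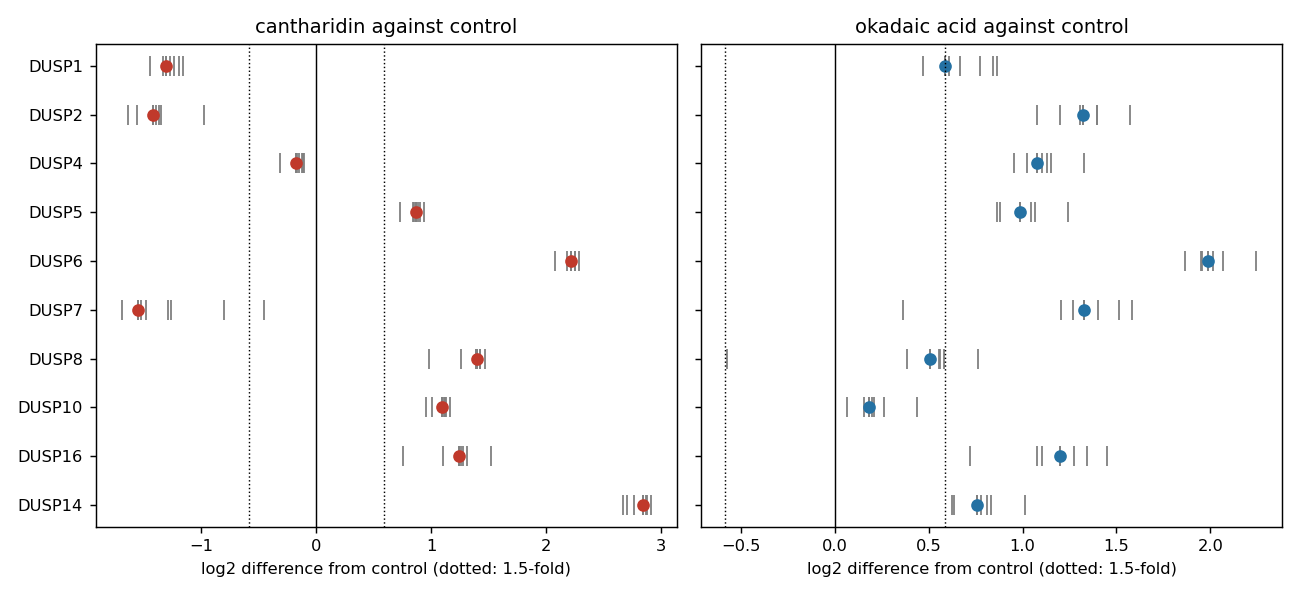
Log2 difference from control of each gene as reported (coloured point) and under the alternative settings (grey ticks), with 1.5-fold as dotted lines. The ticks of DUSP6 with cantharidin span 2.08 to 2.29, while those of DUSP7 reach -0.45 with cantharidin and 0.36 with okadaic acid, and DUSP8 reaches -0.57 with okadaic acid.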

How the data were processed

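Expression was measured in 3 PANC-1 cultures, 1 per group, on 1-colour Agilent whole-genome arrays of 1 slide. Per the file headers, the authors' scanner output came from Feature Extraction 11.0.1.1, and its processed intensity, which is corrected for background, was the measurement used. A deposited table of normalized log2 values for 30845 probes, whose making is not given in the sources used here, served as an alternative. Each of its columns correlated with its own array at 0.998 or more over probes. The flags for spots well above background were used as given.

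Control spots were left out, spots of 1 probe were averaged, and log2 intensity was taken after division by each array's 75th percentile, with no pseudocount. No spot was saturated, and 24768, 25103 and 23071 of 34041 probes were well above background in control, cantharidin and okadaic acid. A comparison used probes well above background on at least 1 of its 2 arrays. A dim spot gave only a bound, against the lowest signal well above background on its array. Probes were named through RefSeq accessions without versions (25705 matched), and the probe with the highest mean log2 signal stood for a gene. Arrays carry no read depth, and their number, 1 per group, limits the precision.

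The genes and lists were chosen with earlier results of these data known. Every phosphatase of the rule was named. In each related list, the genes that could be named were the 2 that rose most and the 2 that fell most with each agent, past 1.5-fold and on detected probes, and for the gene differing most between agents, among those detected on all 3 arrays, the 3 most alike genes were named. DUSP9 and, for the pathway, both PP2A subunits were named for their function. EGR2, not detected in control, was named for the size of its bounds. No probe in the sources used here matched DUSP13B, MAPK8 or SPRED3. Alternatives were normexp background correction (limma 3.58.1 in R 4.3.3, offset 50, on median spot and background signals), other scalings, quantile normalization, other filters and probe rules, the deposited table and a 2-fold threshold. Calculations used Python 3.11.15, numpy 2.4.6 and pandas 2.3.3, were tested on simulated data, and figures were drawn with matplotlib 3.10.9.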

Additional observations from a re-analysis of the deposited data

How the results depend on the processing

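Of 297 member differences recomputed under 10 settings, 265 moved by less than the spot error and 32 moved by more. None of the called differences turned in sign. The filters, the floor for dim signals and the median over probes could not move a gene with 1 probe detected on all 3 arrays. For such genes only background correction, scaling and the deposited table could, so the 265 include values that were fixed in advance. The median of the 10 genes with okadaic acid against control was 0.67 with normexp and 1.29 without scaling, and that of okadaic acid against cantharidin was 0.43 without scaling. At 2-fold, 5 of the 10 genes were higher with okadaic acid against control, where 18.8% of all genes were. Genes lower with okadaic acid than with cantharidin numbered 1 of 10 at 2-fold and 1 of 10 without scaling, close to the 13.6% and 13.9% of all genes. Without scaling DUSP8 and DUSP10 fell short at -0.50 and -0.52. Over the scalings the median of all genes ran from -0.30 to -0.09 with cantharidin, from -0.11 to 0.26 with okadaic acid and from -0.02 to 0.52 between the agents. DUSP8 with okadaic acid came to 0.76 without scaling, which is past 1.5-fold. DUSP7 could not be compared when all 3 arrays had to be well above background. The causes were not tested. Dim signal limits DUSP7 and the third DUSP8 probe, and 1 array per group limits all values. DUSP2 and DUSP16 against control also moved by more than the spot error with normexp. No paired analysis was possible because each group has 1 array and no test was made.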
